A study of Mus musculus with 6 samples.

Results

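SR proteins, heterogeneous nuclear ribonucleoproteins (hnRNPs) and a set of other sequence-specific splicing regulators were described in 3T3-L1 preadipocytes and adipocytes. Members were the protein-coding genes of GENCODE M21 whose symbol begins with Srsf and a digit or with Hnrnp together with Tra2a, Tra2b, Ptbp1, Ptbp2, Ptbp3, Rbfox2, Mbnl1, Mbnl2, Celf1, Celf2, Esrp1, Qk, Khdrbs1 and Khdrbs3. This rule found 45 of the 54752 genes listed in each table (21921 of them protein-coding), in 3 role groups: 13 SR and Tra2 genes, 23 hnRNP and polypyrimidine tract binding (PTB) genes, and 9 other regulators. The Hnrnpa1-like loci Hnrnpa1l2-ps and Hnrnpa1l2-ps2 match the symbol rule but are annotated as pseudogenes and were left out.

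The cells are 3T3-L1, a mouse embryonic fibroblast line that turns into fat cells in culture. The design is 3 preadipocyte libraries against 3 adipocyte libraries, numbered 1 to 3 in each state by the titles. Both states share the strain label C57BL/6J, the tissue label Embryo, no treatment and one medium text naming BCS, DMI and FBS, so the medium text does not separate them. The source name of every sample reads Adipocyte, so each library was assigned to its state by title and by cell type label. The sources used here do not give the day of harvest. No label says whether the 3 libraries of a state came from separate cultures, so p-values measure the spread between these libraries, which may be technical.

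Splicing factors of the SR family carry RNA recognition motifs and a domain rich in arginine and serine, bind mostly to exonic enhancers and recruit spliceosomal particles to weak splice sites. hnRNP proteins coat nascent transcripts, and many of them oppose exon inclusion from silencer elements, so the balance between the families helps to set which exons are kept. In fat cells, alternative splicing is known for the transcripts of Pparg, the insulin receptor and Lpin1, and the STAR protein Sam68 (Khdrbs1) and the SR protein SRSF10 have been studied for their roles in adipocyte differentiation.

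Library totals were 22496486 to 26314076 expected counts. The labelled states were checked on marker genes fixed by name: all 7 adipocyte markers were higher in adipocytes (summed level 92.0 to 98.0 TPM against 19172 to 21580 TPM) and all 6 preadipocyte markers were lower (9108 to 10317 TPM against 393 to 481 TPM). Expected counts are estimates of the reads from each gene. CPM values are these counts per library size after scaling by TMM factors, which lay between 1.11 and 1.13 for preadipocytes and between 0.880 and 0.902 for adipocytes. TPM values are also divided by transcript length, so levels of different genes were compared on TPM only. The scaling changes the split of calls: over all tested genes, the median shift of a gene's log2 fold change against the TMM fit was -0.33 with total counts and -0.48 on log2(TPM + 1). Of the 45 members, 42 passed the low-count filter. In bulk RNA, fewer cells of a type and less RNA per cell cannot be told apart.

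Splicing factor transcripts were lower in adipocytes more often than they were higher. Among the 42 tested members, 19 fell and 7 rose at an adjusted p under 0.05 in edgeR's quasi-likelihood test, and 16 missed the threshold. Over all 14726 tested genes 73.5% were called, 37.9% lower and 35.7% higher. Of the tested members 61.9% were called, 45.2% lower and 16.7% higher. The members thus differed from all tested genes more in their share of higher calls than of lower calls. The median log2 fold change was -0.17 over the members and -0.06 over all tested genes. Among the members the largest changes were falls, and the largest rise, that of Qk, was 1.92-fold. Of the 42 tested members 6 were at least 2-fold lower, a smaller share than the 21.8% of all tested genes. CPM values of the 2 states did not overlap for 30 of 42 members (76.5% of all tested genes), a share near that background. As a share of all expected counts, the members took 0.842% to 0.932% in preadipocytes and 0.554% to 0.683% in adipocytes. With total counts as the scaling, the median log2 fold change over all tested genes was -0.39. On TMM-scaled CPM the members' sum in adipocytes was 87.4% of that in preadipocytes.

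The split between higher and lower depended on how the libraries were scaled. With total counts as the only scaling, 1 member was higher and 32 were lower (26.6% and 50.8% of all tested genes). With limma on log2(TPM + 1), 1 was higher and 36 were lower (22.2% and 56.6%). With upper-quartile factors the members split into 4 higher and 26 lower (31.7% and 43.1%). On TPM, 35 members had adipocyte values wholly below the preadipocyte values, against 56.7% of all tested genes. Across the fit above and 18 alternatives, 18 members were lower every time and Qk was higher every time. How many of all tested genes kept 1 call under every setting was not counted, so this count has no background beside it. The 18 were Srsf3, Srsf5, Srsf7, Srsf11 and Tra2a among the SR genes, Hnrnpa0, Hnrnpa1, Hnrnpa3, Hnrnpd, Hnrnpdl, Hnrnph1, Hnrnph2, Hnrnph3, Hnrnpm, Hnrnpr and Ptbp2 among the hnRNP genes, and Khdrbs1 and Rbfox2.

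**Figure D1:**
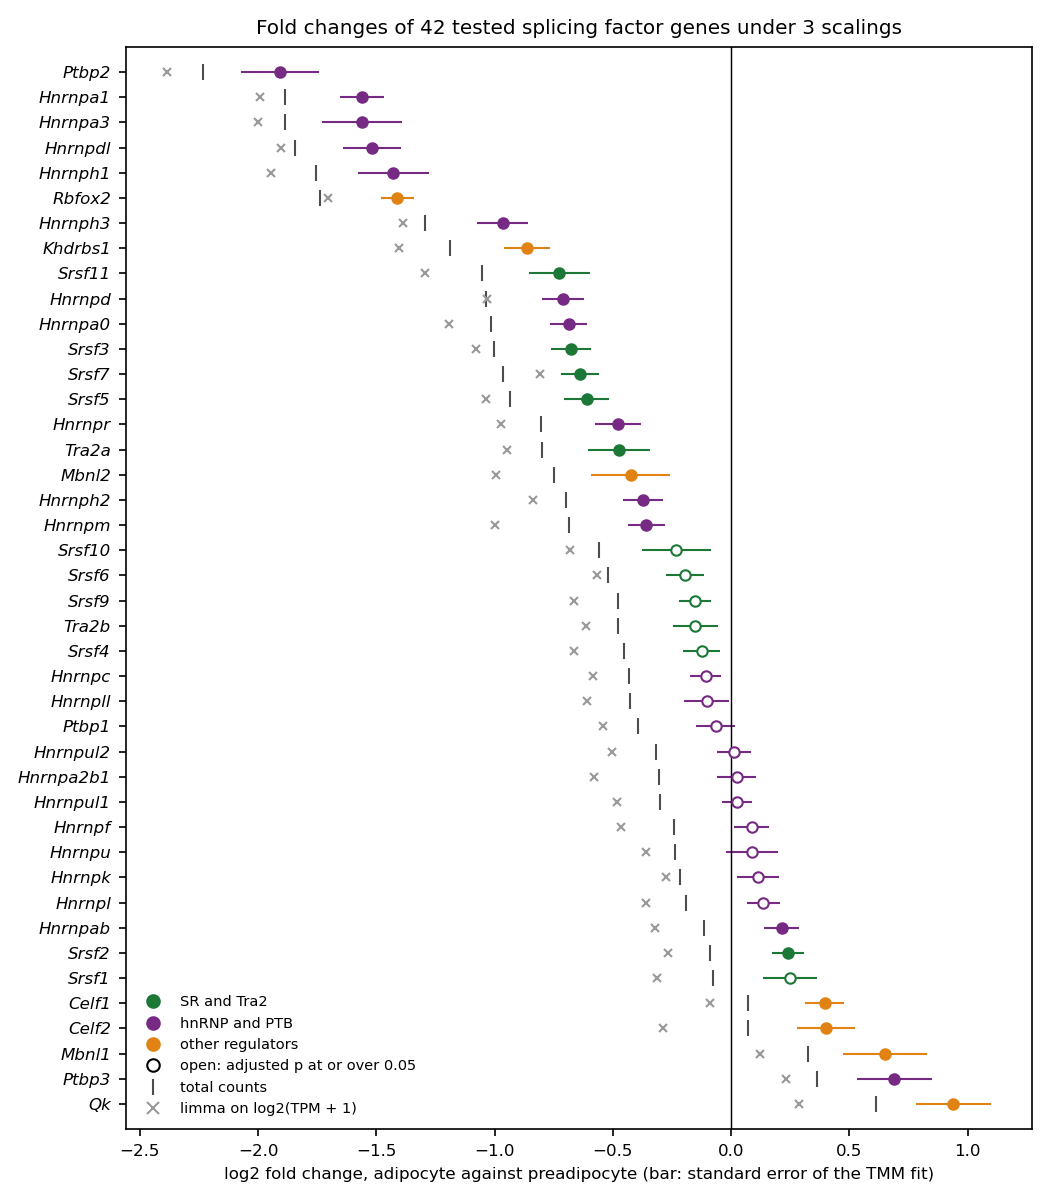
Log2 fold change (adipocyte against preadipocyte, horizontal axis) of each of the 42 tested genes, as a point with its standard error from the TMM-scaled edgeR fit, filled where the adjusted p was under 0.05, with the total-count and log2(TPM + 1) values as a tick and a cross. The other scalings move every gene to the left, and Ptbp2, at -1.91, is the lowest while Qk, at 0.94, is the highest in the TMM fit.

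**Figure D2:**
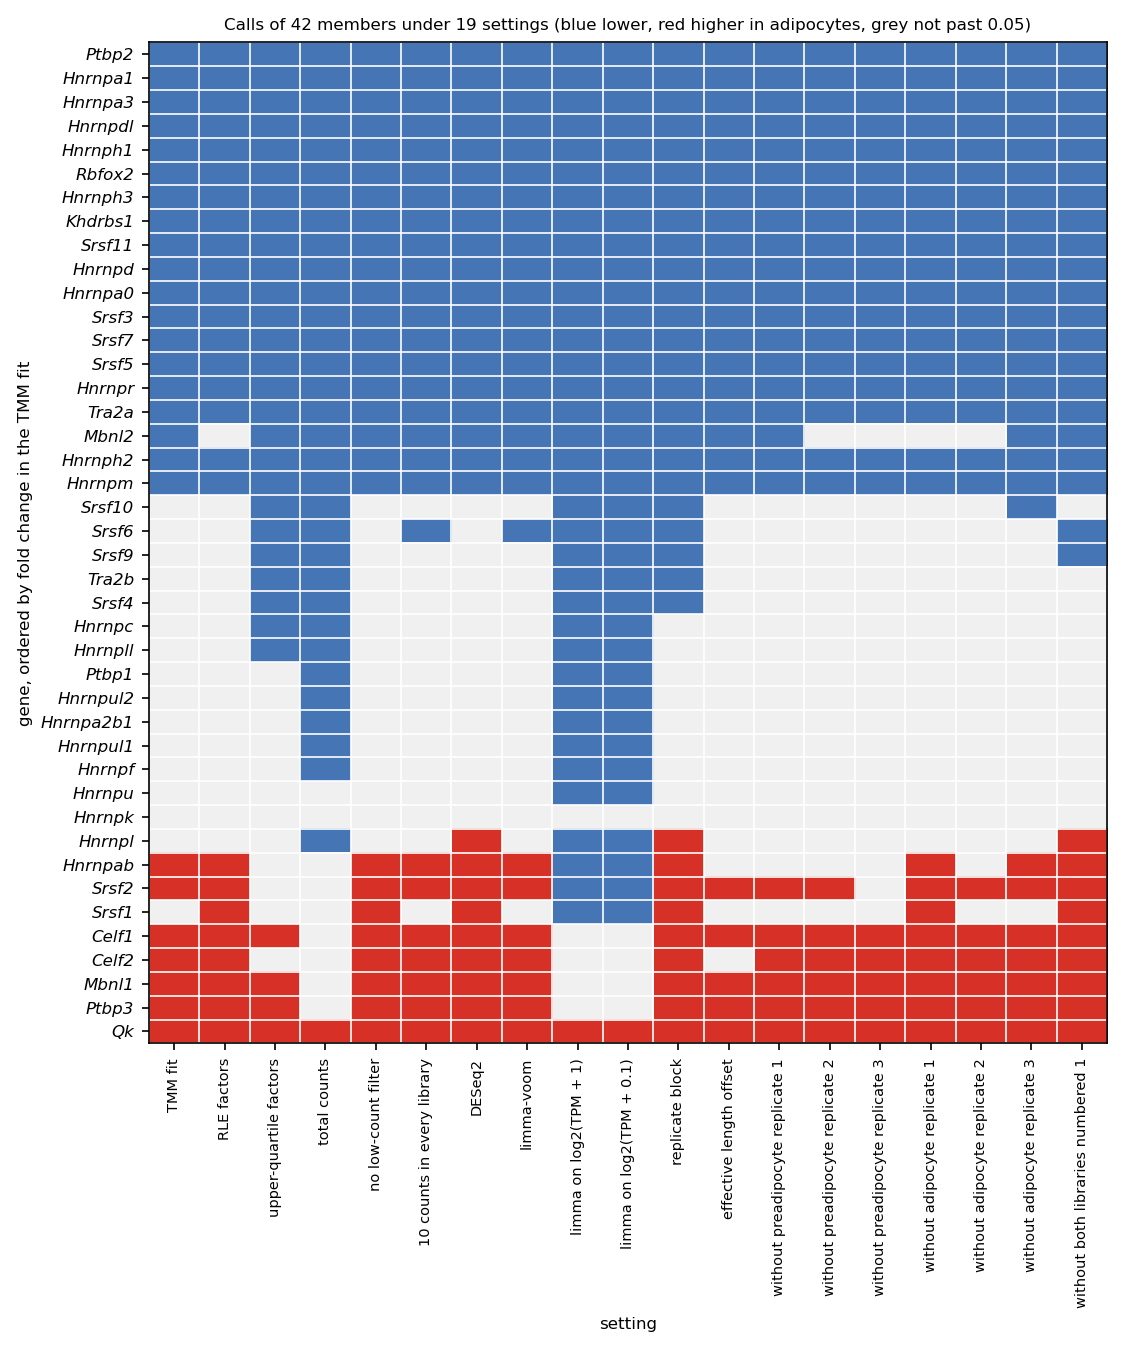
Call of each of the 42 tested genes (rows, ordered by fold change) under 19 settings (columns), blue for lower, red for higher and grey for not past an adjusted p of 0.05. Blue runs throughout in 18 of the upper rows, and Mbnl2, which lies among them, is grey in 5 settings. The bottom row (Qk) is red throughout, Hnrnpk is grey throughout, and the remaining genes change between settings.

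Library number moved with the members' values. CPM was lowest in library 1 of both states for 30 of 42 members, against 28.7% of all tested genes. A fit without both libraries numbered 1, added after seeing the data, gave 9 higher and 21 lower members, where 38% of all 14890 genes tested in that fit were higher and 39.2% were lower.

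SR genes fell in part. Of the 12 tested SR and Tra2 genes, 5 fell (Srsf11, Srsf3, Srsf7, Srsf5 and Tra2a), Srsf2 alone rose, and 6 missed the threshold. The lower share, 41.7%, was near the 37.9% of all tested genes, and 35.7% of all tested genes were higher. The median log2 fold change was -0.21. With upper-quartile factors 83.3% of the SR genes were lower (43.1% of all tested genes). These shares were 83.3% and 50.8% with total counts, and 100% and 56.6% on log2(TPM + 1). With TMM factors and the replicate number as a block, 10 of the 12 were lower and 2 were higher. All tested genes gave 42.2% lower and 39.1% higher in that fit. The count of SR falls with TMM factors was thus 10 with the block and 5 without it. What the numbers share is not given in the labels, and preadipocyte library 2 deviated more like adipocyte library 3 than like adipocyte library 2 (correlations of 0.45 and 0.30 across genes).

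Srsf11, an arginine- and serine-rich protein of nuclear speckles, had 224, 249 and 236 CPM in preadipocyte libraries 1 to 3 and 117, 140.4 and 170.5 CPM in adipocyte libraries 1 to 3. All adipocyte values lay below all preadipocyte values, with adipocyte library 3 closest to them. Its log2 fold change was -0.73 (SE 0.13, adjusted p = 0.00081, edgeR). Srsf3, the smallest SR protein and an adaptor for mRNA export, had 182, 201 and 193 CPM against 109, 124 and 127 CPM. Its states were separate, and its log2 fold change was -0.68 (SE 0.08, adjusted p = 8.3e-05, edgeR). Srsf7, a related export adaptor with a zinc knuckle, had 78.8, 81.8 and 75.7 CPM against 47.0, 50.7 and 53.9 CPM, a log2 fold change of -0.64 (SE 0.08, adjusted p = 8.4e-05, edgeR). Srsf3 and Srsf7 are close relatives, and their log2 fold changes on CPM were of similar size. With the effective length offset they were -0.58 for Srsf3 and -0.31 for Srsf7, and on log2(TPM + 1) -1.08 and -0.81.

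Srsf5, an SR protein that binds exonic enhancers, was the most abundant SR transcript per length in both states. It had 475, 455 and 433 TPM in preadipocytes and 207, 214 and 243 TPM in adipocytes without overlap between the states. On CPM its log2 fold change was -0.61 (SE 0.10, adjusted p = 0.00037, edgeR). Srsf2, known as SC35 and used as a marker of nuclear speckles, went the other way on CPM, with 125, 124 and 121 CPM in preadipocytes and 139, 149 and 148 CPM in adipocytes. That log2 fold change of 0.24 (SE 0.07, adjusted p = 0.011, edgeR) depended on the scaling, being -0.09 with total counts and -0.27 on log2(TPM + 1), and it missed the threshold without preadipocyte library 3 (adjusted p = 0.058, edgeR). Its TPM fell from 135 ± 3.02 to 112 ± 5.12 (SD, n = 3).

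The 6 SR genes that missed the threshold had log2 fold changes of -0.23 to 0.25. They were Srsf10, whose dephosphorylated form acts as a repressor (-0.23), Srsf6 (-0.20), Srsf9 (-0.15), Tra2b (-0.15), Srsf4 (-0.12) and Srsf1, the founding SR protein (0.25). With the replicate block the first 5 were lower, at adjusted p values from 0.0042 for Srsf6 to 0.047 for Srsf4, and Srsf1 was higher (adjusted p = 0.0024, edgeR). Srsf1 had 113, 126 and 124 CPM against 119.6, 149 and 162 CPM, so the unpaired states overlapped through adipocyte library 1. Srsf4 shares 41.0% of its 31-base words with another locus, Gm12992, which held 35.1 expected counts in all 6 libraries together. Srsf12 was near absence, with 2 counts summed over preadipocyte and 1 over adipocyte libraries, under the floor of 3 counts (0.0383 CPM and 0.0443 CPM).

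The genes of the hnRNP class split between falls and levels that missed the threshold. Of 23 tested hnRNP and PTB genes, 11 fell, Ptbp3 and Hnrnpab rose and 10 missed the threshold, and the median log2 fold change was -0.11. Lower genes made up 47.8% of the group (37.9% of all tested genes), and genes called in either direction made up 56.5%, less than the 73.5% of all tested genes. Among the A/B hnRNPs, which have a pair of RNA recognition motifs and a glycine-rich tail, Hnrnpa1, Hnrnpa3 and Hnrnpa0 fell while Hnrnpa2b1 did not pass the test. Windows upstream of these 4 genes are shown because close relatives in protein structure differed in how far they moved. Each is the 250 bases before the RefSeq start on GRCm38.p6, written 5′ to 3′ on the gene's strand, with matches on either strand to the CCAAT box, to the E box word CACGTG and to the ETS-type word CCGGAA in capitals. They are Hnrnpa1 at chr15:103240147-103240396 (plus strand), Hnrnpa3 at chr2:75659009-75659258 (plus), Hnrnpa0 at chr13:58128557-58128806 (minus) and Hnrnpa2b1 at chr6:51469895-51470144 (minus).
Hnrnpa1: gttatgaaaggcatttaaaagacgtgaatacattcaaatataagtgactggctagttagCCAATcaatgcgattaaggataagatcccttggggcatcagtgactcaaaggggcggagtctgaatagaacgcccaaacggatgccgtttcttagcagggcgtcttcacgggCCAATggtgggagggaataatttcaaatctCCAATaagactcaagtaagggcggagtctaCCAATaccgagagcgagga
Hnrnpa3: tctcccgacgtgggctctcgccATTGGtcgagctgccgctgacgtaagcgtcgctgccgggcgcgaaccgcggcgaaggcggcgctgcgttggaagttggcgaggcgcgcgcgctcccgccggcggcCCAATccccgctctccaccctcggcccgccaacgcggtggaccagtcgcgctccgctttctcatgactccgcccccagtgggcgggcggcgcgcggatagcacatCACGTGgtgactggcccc
Hnrnpa0: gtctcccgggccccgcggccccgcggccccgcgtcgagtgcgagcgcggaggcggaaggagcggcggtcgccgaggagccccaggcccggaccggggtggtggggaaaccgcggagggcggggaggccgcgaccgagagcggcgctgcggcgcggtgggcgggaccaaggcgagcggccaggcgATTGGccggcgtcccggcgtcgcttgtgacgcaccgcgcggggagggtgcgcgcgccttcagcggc
Hnrnpa2b1: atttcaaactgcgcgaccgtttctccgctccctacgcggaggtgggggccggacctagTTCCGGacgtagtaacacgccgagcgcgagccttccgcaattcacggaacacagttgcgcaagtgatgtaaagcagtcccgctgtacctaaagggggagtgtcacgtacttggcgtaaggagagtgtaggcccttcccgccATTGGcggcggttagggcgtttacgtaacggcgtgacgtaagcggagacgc

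In these windows, Hnrnpa1 held 4 CCAAT matches, Hnrnpa3 held 2 and 1 CACGTG, Hnrnpa0 held 1 CCAAT, and Hnrnpa2b1 held 1 CCAAT and 1 CCGGAA. The CCAAT box was thus found upstream of the 3 genes that fell and of the relative that did not pass. RefSeq windows on GRCm38.p6 were matched for 38 of the 45 members, in 55 windows that include 50 bases past the start. CCAAT lay in 45.5% of these windows and in 37.4% of all 32851, CCGGAA in 32.7% and 14.9%, CACGTG in 12.7% and 7.15%, and TATAAA in 10.9% and 13.6%, counted on both strands. Among the 22 windows of members that were lower under every setting, 10 held CCAAT, 6 held CCGGAA and 4 held CACGTG. The members' windows were richer in G and C, with a median of 66.3% against 52.7%, and held a median of 28 CpG against 7, and motif shares were not corrected for this. A match describes letters, not binding.

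Hnrnpa1, a shuttling protein that binds exonic silencers (chr15:103240432-103246692), had 258, 291 and 282 CPM in preadipocytes and 84.0, 96.3 and 101 CPM in adipocytes. Every adipocyte value lay far below the preadipocyte range. Its log2 fold change was -1.56 (SE 0.09, adjusted p = 6.4e-07, edgeR). Hnrnpa3 (chr2:75659261-75669407) had 193, 256 and 238 CPM against 59.4, 80.1 and 93.4 CPM, a log2 fold change of -1.56 (SE 0.17, adjusted p = 3.5e-05, edgeR). Both states were lowest in library 1. Hnrnpa0, an intronless relative, had 149, 138 and 155 CPM against 95.9, 92.6 and 85.7 CPM, a log2 fold change of -0.69 (SE 0.08, adjusted p = 4.8e-05, edgeR).

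Hnrnpa2b1, which binds similar elements and also sorts RNA into vesicles, had 688, 722 and 680 CPM in preadipocytes and 657, 698 and 769 CPM in adipocytes. These ranges overlapped, and the log2 fold change was 0.02 (SE 0.08, adjusted p = 0.81, edgeR), but -0.30 with total counts and -0.58 on log2(TPM + 1). It remained the most abundant member per length, at 970 ± 81.7 TPM in preadipocytes and 651 ± 78.4 TPM in adipocytes (SD, n = 3). Hnrnpa1 meanwhile moved from rank 5 to rank 19 among the 45 members by mean TPM. Within a library, which no scaling between libraries can alter, Hnrnpa1 took 23.7%, 24.4% and 25.0% of the summed TPM of Hnrnpa1 and Hnrnpa2b1 in preadipocytes and 10.7%, 11.0% and 10.4% in adipocytes. This pair was chosen after its values were seen, and the exact two-sided permutation p of 0.1 is the smallest that 3 libraries against 3 can give.

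Reads of some of these genes can be shared with annotated copies. Hnrnpa3 shares 26.6% of its 31-base words with Gm5641, which held 7239, 6031 and 6689 counts in preadipocytes and 2105, 1564 and 1967 in adipocytes. The count of Hnrnpa3 is therefore uncertain, but Hnrnpa3 and Gm5641 summed gave a log2 ratio of -1.59, close to that of Hnrnpa3 alone. Gm5641 was highest in library 1 of both states, where Hnrnpa3 was lowest. Whether reads were split differently between the 2 loci in library 1 was not tested. Hnrnpa1 shares 29.1% with Gm10052, whose counts of 707, 0 and 68 against 219, 0 and 45 varied widely between libraries of a state, and the sum of both loci gave -1.56. Hnrnpf shares 66.2% with other loci, which together held 632 expected counts. Hnrnpab shares 26.0% with its neighbour Phykpl, which held 1718 counts over the 6 libraries. Hnrnpm shares 14.0% with March2, which held 8220 counts. Among the SR genes, Srsf2 shares 23.1% with other loci, and 2 of these held 10250 counts together, against 19500 for Srsf2. Whether the libraries keep strand is not given in the sources used here, so overlapping genes cannot be told apart.

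Hnrnpd and Hnrnpdl bind AU-rich elements and are known for roles in mRNA decay as well as splicing. Hnrnpdl fell the more, with 190.3, 209 and 201 CPM against 57.3, 71.4 and 80.8 CPM. No adipocyte library reached the preadipocyte range, and the log2 fold change was -1.52 (SE 0.12, adjusted p = 4.5e-06, edgeR). For Hnrnpd it was -0.71 (SE 0.09, adjusted p = 9.1e-05, edgeR). Hnrnpdl took 49.1% ± 0.28 (SD, n = 3) of their summed TPM in preadipocytes and 34.4% ± 3.64 in adipocytes, a comparison also chosen after the values were seen (exact permutation p = 0.1).

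The hnRNP H and F proteins bind runs of G. Hnrnph1 had 276, 318 and 297 CPM against 87.2, 108 and 135 CPM, a log2 fold change of -1.43 (SE 0.15, adjusted p = 2.7e-05, edgeR). Adipocyte library 3 was the highest of its state, still below each preadipocyte library. Hnrnph3 fell with a log2 fold change of -0.97, Hnrnph2 with -0.37, and Hnrnpf, at 0.09, missed the threshold. The fall was therefore unequal within this family, largest for Hnrnph1, and Hnrnpf stayed among the 3 most abundant members by TPM in both states. Further members that fell were Hnrnpr, at -0.48, and Hnrnpm, at -0.36.

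The 10 hnRNP genes that missed the threshold had log2 fold changes of -0.11 to 0.14. They were Hnrnpc, which binds U tracts, Hnrnpk, which binds C-rich RNA, Hnrnpl and Hnrnpll, which bind CA repeats, Hnrnpu, a scaffold protein of chromatin, Hnrnpul1, Hnrnpul2, Hnrnpf, Ptbp1 and Hnrnpa2b1. Hnrnpk, for example, had 435, 490.3 and 478 CPM against 458, 526 and 534 CPM, and its states overlapped. Of these 10, Hnrnpul1, Hnrnpul2, Hnrnpf, Hnrnpu, Hnrnpk, Hnrnpl and Hnrnpa2b1 lay above 0 with TMM and below 0 with total counts. Hnrnpl was higher with the replicate block (adjusted p = 0.024, edgeR) and lower with total counts. Hnrnpab, which was higher with TMM at 0.21 (SE 0.07, adjusted p = 0.028, edgeR), was -0.11 with total counts and lower on log2(TPM + 1), at -0.32. It was called higher in 10 of 19 settings, and missed the threshold without any 1 preadipocyte library (adjusted p = 0.079, 0.067 and 0.064 without libraries 1, 2 and 3, edgeR), without adipocyte library 2 (adjusted p = 0.083, edgeR), with upper-quartile factors and with the effective length offset.

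**Figure D3:**
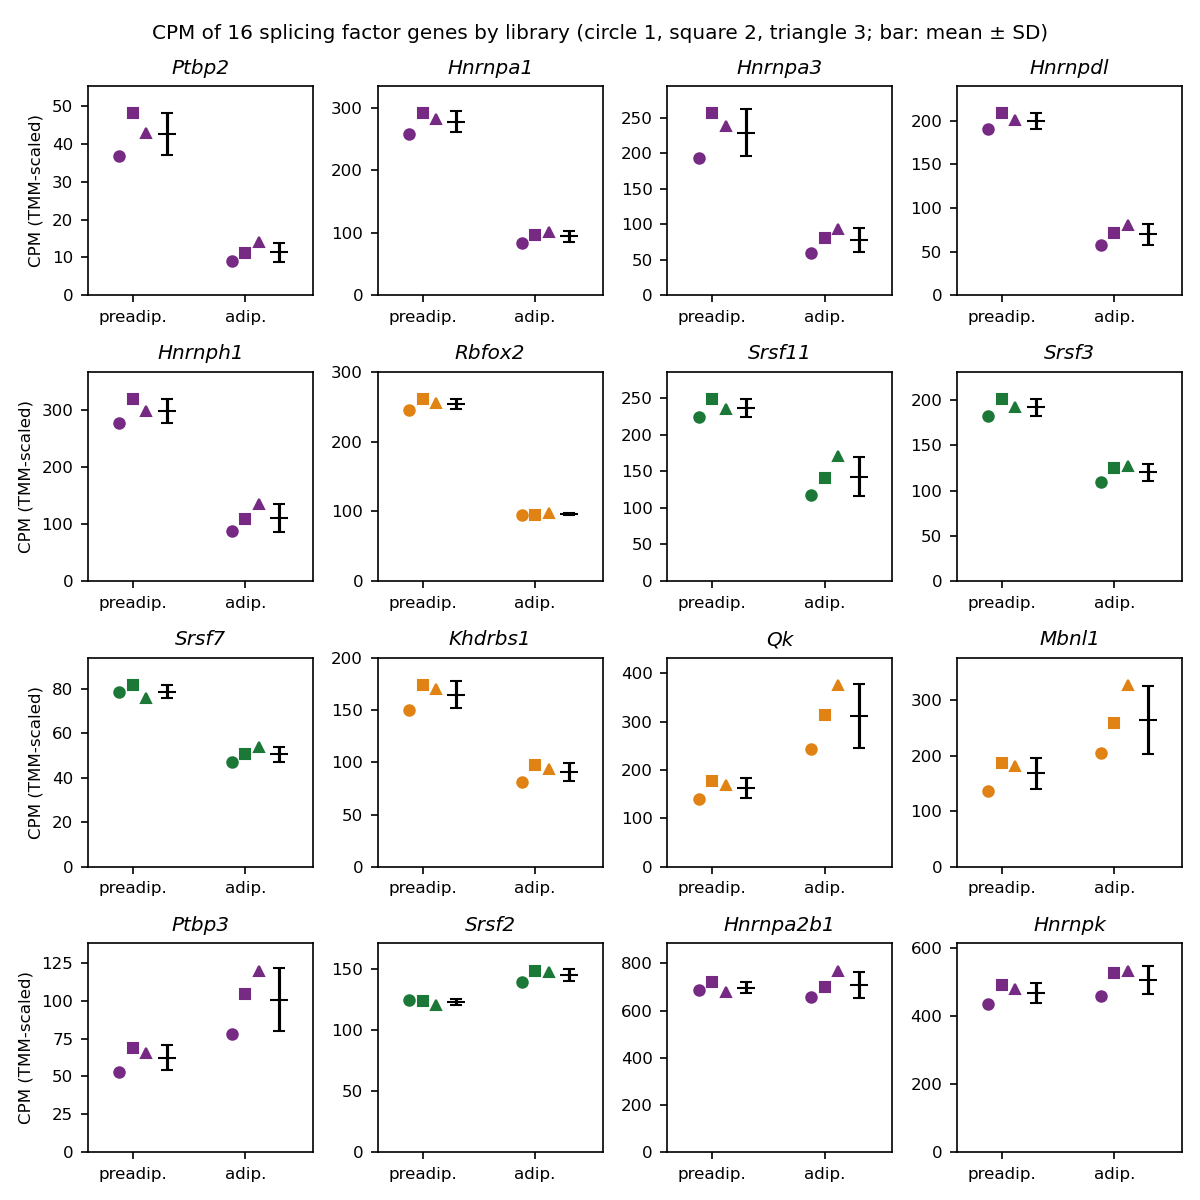
TMM-scaled CPM (vertical axes, from 0) of 16 genes in each of the 6 libraries, with circles, squares and triangles for libraries 1, 2 and 3 and bars for mean and SD over 3 libraries. The Hnrnpa1 points fall from 258 or more to 101 or less, the Hnrnpa2b1 points overlap, and the Qk points rise.

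PTB proteins bind pyrimidine tracts, usually to silence exons, and Ptbp2 is the form known best from neurons, where it replaces Ptbp1. Ptbp2 had the largest fall of all members (chr3:119718742-119784466), from 36.9, 48.2 and 42.9 CPM in preadipocytes to 8.95, 11.2 and 14.0 CPM in adipocytes. Its log2 fold change was -1.91 (SE 0.17, adjusted p = 7.6e-06, edgeR), a 3.75-fold difference. Ptbp1 had 265, 243 and 245 CPM against 258, 238 and 223 CPM, and these overlapped (log2 fold change -0.07, SE 0.08, adjusted p = 0.49, edgeR). Ptbp1 was lower with total counts (-0.39, adjusted p = 0.0013, edgeR) and on log2(TPM + 1) (-0.54, adjusted p = 0.00016, limma). Its TPM values, 197, 189 and 190 against 142, 128 and 125, did not overlap. Ptbp3, a further paralogue, had 53.1, 68.7 and 65.3 CPM against 78.1, 104 and 119.8 CPM, a log2 fold change of 0.69 (SE 0.16, adjusted p = 0.0038, edgeR) that missed the threshold with total counts and on log2(TPM + 1), where its TPM values overlapped.

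Within each library Ptbp2 took 15.4%, 19.6% and 19.1% of the summed TPM of Ptbp1 and Ptbp2 in preadipocytes and 4.11%, 4.87% and 6.96% in adipocytes. Ptbp3 took 9.45% ± 1.36 of Ptbp1 and Ptbp3 in preadipocytes and 15.3% ± 2.78 in adipocytes (SD, n = 3). Between the minor paralogues, Ptbp3 made up 32.2% ± 1.89 of Ptbp2 and Ptbp3 in preadipocytes and 76.5% ± 2.09 in adipocytes, so their order turned over. That last pair was chosen after the values were seen. Neuron markers moved with the state: of 6, Snap25 was higher, Map2 was lower and 4 were not tested (Rbfox3 at 0 in all libraries, with Syt1, Tubb3 and Stmn2 at 14 counts or fewer per state). Their summed level was 9.90 to 12.2 TPM in preadipocytes and 2.77 to 3.84 TPM in adipocytes, and their part in the fall of Ptbp2 was not tested.

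**Figure D4:**
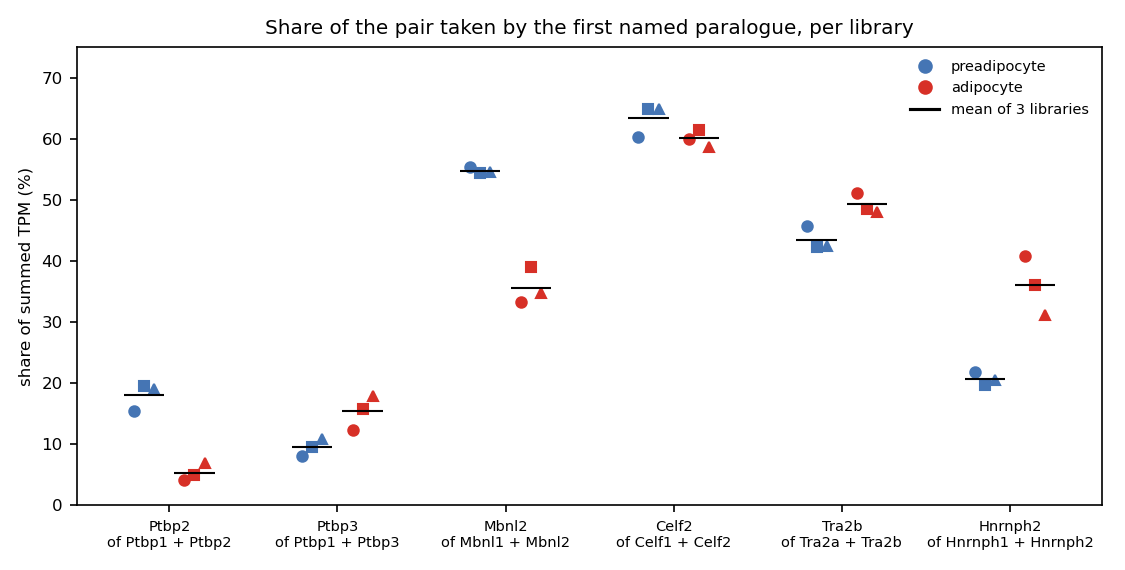
Share of the summed TPM of a gene pair (%, vertical axis, from 0) taken by the first named paralogue in each library, with circles, squares and triangles for libraries 1, 2 and 3, blue for preadipocytes, red for adipocytes and a bar for the mean. The shares of Ptbp2, Ptbp3, Mbnl2, Tra2b and Hnrnph2 do not overlap between states, and that of Celf2 does.

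In all, 8 paralogue pairs were compared by such shares, and each p was adjusted over the 8. Shares did not overlap between states for 5 pairs, each at the smallest possible exact permutation p of 0.1 (adjusted p = 0.16), so no pair could pass 0.05. Besides the PTB pairs, Mbnl2 fell from 54.8% ± 0.56 to 35.6% ± 2.95 of Mbnl1 and Mbnl2. Hnrnph2 went from 20.6% ± 1.11 to 36.0% ± 4.84 of Hnrnph1 and Hnrnph2, and Tra2b from 43.4% ± 1.90 to 49.2% ± 1.62 of Tra2a and Tra2b (SD, n = 3). Celf2 took 63.3% ± 2.64 and 60.0% ± 1.41 of Celf1 and Celf2, with overlapping libraries (exact permutation p = 0.2, adjusted p = 0.27). The shares of Srsf12 beside Srsf2 and of Khdrbs3 beside Khdrbs1 were at or near 0 in both states.

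The other regulators all passed the test where they could be tested, in both directions. Of 7 tested, Qk, Mbnl1, Celf2 and Celf1 were higher, Rbfox2, Khdrbs1 and Mbnl2 were lower, and the median log2 fold change was 0.40. Over all tested genes 73.5% were called, 35.7% higher and 37.9% lower, and 7 genes are few for a comparison with these shares. Apart from Qk, the higher calls were lost with total counts and on log2(TPM + 1), where Celf1 and Celf2 lay at -0.09 and -0.29.

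Rbfox2, which binds UGCAUG and acts from either side of an exon (chr15:77078990-77307004), had 246, 262 and 256 CPM in preadipocytes and 94.3, 95.5 and 97.5 CPM in adipocytes. The libraries of each state were close together, and the log2 fold change of -1.41 (SE 0.07, adjusted p = 1.7e-07, edgeR) had the smallest standard error among the 6 members that were at least 2-fold lower. Khdrbs1, the STAR protein Sam68, had 150.1, 175 and 171 CPM against 80.8, 97.9 and 93.8 CPM, a log2 fold change of -0.86 (SE 0.10, adjusted p = 4.4e-05, edgeR). Adipocyte values were again all below preadipocyte values. Its paralogue Khdrbs3 had 0 counts in all libraries, which allows up to 3 counts per state, or 0.0383 CPM in preadipocytes and 0.0443 CPM in adipocytes.

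Qk encodes quaking, a STAR protein that binds ACUAA-type elements and is known from myelin, muscle and vessels (chr17:10202601-10319854). It had 139.7, 178 and 169.8 CPM in preadipocytes and 244, 314 and 376 CPM in adipocytes, without overlap. The log2 fold change was 0.94 (SE 0.16, adjusted p = 0.00061, edgeR), 0.61 with total counts and 0.29 on log2(TPM + 1). On TPM the states touched, at 76.5, 64.3 and 66.6 TPM against 89.8, 76.4 and 87.7 TPM, with preadipocyte library 1 just above adipocyte library 2. In the deposited tables the mean length of its transcripts was 3369, 5334 and 4952 bases in preadipocytes and 3541, 5426 and 5771 bases in adipocytes, so library 1 of both states stood low.

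Muscleblind-like proteins bind the CUG repeats of myotonic dystrophy, and CELF proteins often act against them, for example on an exon of the insulin receptor. Mbnl1 had 137, 187 and 182 CPM against 206, 259 and 328 CPM, a log2 fold change of 0.65 (SE 0.18, adjusted p = 0.0093, edgeR). Mbnl2 had 120.4, 158 and 152 CPM against 82.4, 108 and 130.4 CPM, with overlap between adipocyte library 3 and preadipocyte library 1. Its log2 fold change of -0.42 (SE 0.17, adjusted p = 0.046, edgeR) missed the threshold in 5 of 18 alternatives, among them the fits without preadipocyte library 2 or 3 or without adipocyte library 1 or 2, but it was -0.99 on log2(TPM + 1). Celf1 and Celf2 rose alike on CPM, each by 0.40 on the log2 scale (SE 0.08 and 0.12, adjusted p = 0.0022 and 0.016, edgeR), and their TPM values overlapped between states. Celf2 missed the threshold with upper-quartile factors (adjusted p = 0.082, edgeR) and with the effective length offset (adjusted p = 0.12, edgeR). Skeletal muscle markers also moved with the state: of 6, Des and Acta1 were higher and Myod1, Myog, Ckm and Myh3 were at 0, with a summed level of 1.40 to 2.05 TPM against 49.4 to 57.0 TPM, and their part in the levels of the MBNL and CELF genes was not tested.

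Esrp1, the regulator of epithelial splicing, was below the filter. It had 1 count over the preadipocyte and 42 over the adipocyte libraries, a ratio of 48.7 after scaling with an interval of 8.74 to 1923 from the exact 95% Poisson limits of the preadipocyte count, which covers counting error only. Its level in adipocytes was 0.605, 0.888 and 0.389 CPM, so it remained a rare transcript. Without a low-count filter it was higher (adjusted p = 8.8e-06, edgeR). None of the 7 epithelial markers passed the filter, Epcam and Cdh1 had at most 3 counts per state, Cldn7 was at 0, and their sum was 0.290 to 0.610 TPM in preadipocytes and 0.530 to 1.37 TPM in adipocytes. The part of these markers in the level of Esrp1 was not tested.

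Summed over a role group, levels per length were lower in adipocytes. SR genes together had 1749 ± 42.0 TPM in preadipocytes and 1004 ± 84.0 TPM in adipocytes (SD, n = 3), or 57.4% of the preadipocyte level. The hnRNP genes had 4987 ± 373 TPM and 3015 ± 290.3 TPM, or 60.5%, and the other regulators 548 ± 47.9 TPM and 385 ± 41.9 TPM, or 70.2%. The states did not overlap in any of these sums, and each exact permutation p was 0.1, the smallest possible. On TPM 56.7% of all tested genes also had adipocyte values wholly below the preadipocyte values. Their median log2 fold change on log2(TPM + 1) was -0.42, and the sums were not corrected for this. On TMM-scaled CPM the same sums were 78.9%, 86.1% and 106%, so the direction for the other regulators depended on the scaling (exact permutation p = 0.7).

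The deposited length of a gene is the mean over its annotated transcripts, weighted by their estimated abundance, so it changes when the mix of transcripts changes. It varied in 40 tested members and was fitted with limma on log2 length, with adjustment over 11374 genes. Only Hnrnpdl passed, being shorter, where 4.53% of all genes changed and 2.77% were shorter. Its mean length was 2207, 2170 and 2205 bases in preadipocytes and 2061, 1991 and 2018 bases in adipocytes, a log2 difference of -0.12 (SE 0.02, adjusted p = 0.033, limma). The states were separate. The call was lost without any 1 preadipocyte library or without adipocyte library 2.

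Next in order, all short of the threshold, were Hnrnpa1, from 1797 ± 15.7 to 1707 ± 24.1 bases (adjusted p = 0.072, limma), and Srsf7, from 1762 ± 95.6 to 1424 ± 83.3 bases (adjusted p = 0.075, limma). Srsf3 went from 2626 ± 26.1 to 2449 ± 79.1 bases (adjusted p = 0.13, limma). Transcripts of Srsf7 and Srsf3 are known to carry poison exons that send them to decay, and the length column does not say which exon differs. Celf2 went the other way, from 3681 ± 86.2 to 4126 ± 212 bases (adjusted p = 0.13, limma). At an unadjusted p under 0.05, 11 of 40 members differed, 8 shorter and 3 longer, against 19.5% of all genes. The states did not overlap in length for 13 of 40 members (27.1% of all genes), and length was lowest in library 1 of both states for 22 of 40 (21.2% of all genes).

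**Figure D5:**
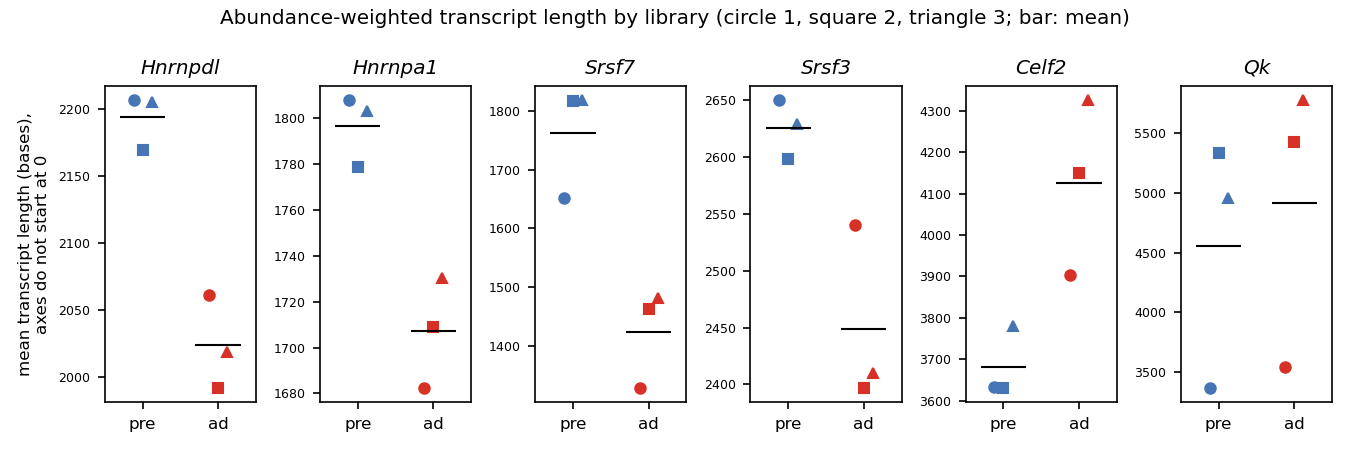
Abundance-weighted mean transcript length (bases, vertical axes not from 0) of 6 genes in each library, with circles, squares and triangles for libraries 1, 2 and 3 and a bar for the mean. Hnrnpdl is the one gene past the threshold, and Qk shows library 1 low in both states.

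Genes that act with the members were read from lists of textbook members. Of the 8 tested kinases and import factors of SR proteins, 3 were higher and 4 were lower (35.7% and 37.9% of all tested genes). With total counts 1 was higher and 5 were lower (26.6% and 50.8%), and on log2(TPM + 1) 1 and 6 (22.2% and 56.6%). Srpk1, the cytoplasmic SR kinase, rose from 65.6 ± 2.61 to 103 ± 5.89 CPM (SD, n = 3; log2 fold change 0.65, adjusted p = 5.1e-05, edgeR), and Clk1, a nuclear kinase of the same substrates, fell from 146 ± 11.3 to 89.5 ± 20.9 CPM (-0.70, adjusted p = 0.0027). Kinases of the 2 compartments did not move as blocks, because Srpk2 was lower and Clk3 was higher.

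Of 34 core spliceosome genes, 22 were lower and 1 was higher (median log2 fold change -0.39), where 37.9% of all tested genes were lower and 35.7% were higher. Snrpd1, a Sm core protein, had the largest fall, at -0.91 (adjusted p = 2.5e-05, edgeR), and Prpf8, the scaffold of the catalytic centre, was the one that rose, at 0.23 (adjusted p = 0.013). That rise was not kept with upper-quartile factors, total counts or log2(TPM + 1), where 25, 32 and 34 of the 34 were lower and 43.1%, 50.8% and 56.6% of all tested genes were. Of 6 coactivators related to SR proteins, Srrm1 (-0.43) and Acin1 (-0.24) were lower and 4 missed the threshold. Among 21 hnRNP-type genes under other symbols, 12 were lower and 3 higher, from Pcbp4 at -1.06 to Taf15 at 0.97. Of 10 genes of nonsense-mediated decay, which removes transcripts with poison exons, 3 were higher and 2 lower, with Smg5 at 1.05 and Upf2 at -0.40. These 3 lists also shifted with total counts and on log2(TPM + 1). All 6 coactivators were lower in each. The hnRNP-type genes gave 15 and 16 lower, with 1 higher in each. The genes of nonsense-mediated decay gave 7 lower and 1 higher in each. Of all tested genes 50.8% and 56.6% were lower, and 26.6% and 22.2% were higher.

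Tissue-restricted splicing regulators outside the member rule changed in both directions. Of 20, 10 passed the filter, 3 higher and 4 lower (35.7% and 37.9% of all tested genes). Rbm47, an RNA-binding protein known from epithelia, liver and gut, had 5 counts over the preadipocyte and 1644 over the adipocyte libraries, and reached 24.3 ± 1.95 CPM in adipocytes (SD, n = 3; log2 fold change 8.46, adjusted p = 4.4e-09, edgeR). Celf5 fell from 5.19 ± 0.18 to 0.296 ± 0.07 CPM (-4.11, adjusted p = 2.3e-07). Srrm4, which drives neuronal microexons, fell by 3.05 on the log2 scale. All 10 cell cycle genes in the comparison list were lower, with a median log2 fold change of -2.66, and their part in the lower levels of SR, hnRNP and spliceosome genes was not tested.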

How the data were processed

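Gene tables for 6 libraries were used, 3 of 3T3-L1 preadipocytes and 3 of adipocytes. Per the file headers each holds an expected count, TPM, FPKM and 2 lengths per gene, as RSEM writes them. The submitters' processing notes name RSEM, DESeq2, Bowtie and Bowtie2 and the builds GRCm38 and mm10, with no version or role. The deposited expected counts share out reads that match several genes and carry no scaling from library to library. The TPM values, as deposited, sum to a fixed total in each library. Other values deposited by the authors are the length and effective length in bases, and FPKM was not used.

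Expected counts were rounded. Genes passing filterByExpr were tested with edgeR 4.0.16 (R 4.3.3), TMM factors, a quasi-likelihood test on group alone, and Benjamini-Hochberg adjustment at 0.05 over all genes. limma 3.58.1 was fitted to log2 length and, as an alternative, to log2(TPM + 1), and DESeq2 1.42.0 was another alternative. The edgeR, DESeq2 and length fits were also run on simulated data. The simulated counts had a fixed dispersion and no effect of library number. That run therefore does not cover the library-number pattern seen here. GENCODE M21 (GRCm38) gave symbols for 54723 of 54752 identifiers. No 2 libraries of a state agreed within counting noise, so each was treated as 1 replicate. The lowest chi-square per degree of freedom was 2.99, for preadipocyte libraries 2 and 3, against 15.5 to 39.7 for the other pairs. Spread above counting noise does not show that libraries came from separate cultures.

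Same-numbered libraries were checked for pairing. Deviations from the group means correlated at 0.66, 0.30 and 0.26 for numbers 1, 2 and 3, all above 0.1, so an alternative fit has the number as a block. Preadipocyte library 2 correlated at 0.45 with adipocyte library 3, above its own-number value. The titles give the numbers and do not say what they share.

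Members, lists and pairs were chosen with earlier results of these data known. Genes named were all members, both genes of each pair, per-library values for the 3 largest rises and falls past the threshold and the most abundant gene in each role group, and the largest rise and fall past the threshold in each supporting list. Other named genes were chosen after their values were seen. Copies were sought as shared 31-base words between annotated transcripts. Floors and intervals cover counting error only.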

Additional observations from a re-analysis of the deposited data

How the results depend on the processing

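Leaving out 1 library at a time gave 6 to 8 higher and 18 to 20 lower members, 0 to 2 higher SR genes and 1 to 2 higher hnRNP genes. With the replicate block 2 SR genes were higher and 10 lower. RLE factors, no low-count filter, DESeq2 and the fit without both libraries numbered 1 each gave 2 higher SR genes, and the effective length offset gave 1 higher hnRNP gene. Upper-quartile factors gave 4 higher members, with 0 higher and 10 lower SR genes and 1 higher hnRNP gene. Total counts gave 1 higher and 32 lower members (0 and 10 of the SR genes, 0 and 19 of the hnRNP genes, 1 higher among the others), and limma on log2(TPM + 1) or log2(TPM + 0.1) gave 1 and 36 (0 and 12, 0 and 21, and 1 higher). Supporting lists held 13 higher genes in the main fit and 6 under each of these last 3. Over all genes, 5252 were higher, 3266 on log2(TPM + 1) and 3248 on log2(TPM + 0.1). The cause of these shifts was not tested.

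Log2 fold changes that reversed with upper-quartile factors were those of Hnrnpa2b1 (-0.11), Hnrnpf (-0.047), Hnrnpk (-0.021), Hnrnpu (-0.045), Hnrnpul1 (-0.11) and Hnrnpul2 (-0.12). With total counts they were Hnrnpa2b1 (-0.30), Hnrnpab (-0.11), Hnrnpf (-0.24), Hnrnpk (-0.21), Hnrnpl (-0.19), Hnrnpu (-0.24), Hnrnpul1 (-0.30), Hnrnpul2 (-0.32), Srsf1 (-0.078) and Srsf2 (-0.088). On log2(TPM + 1) and log2(TPM + 0.1) they were Celf1 (-0.089 and -0.091), Celf2 (-0.29 and -0.29), Hnrnpa2b1 (-0.58 and -0.58), Hnrnpab (-0.32 and -0.32), Hnrnpf (-0.47 and -0.47), Hnrnpk (-0.27 and -0.27), Hnrnpl (-0.36 and -0.36), Hnrnpu (-0.36 and -0.36), Hnrnpul1 (-0.48 and -0.49), Hnrnpul2 (-0.51 and -0.51), Srsf1 (-0.31 and -0.31) and Srsf2 (-0.27 and -0.27). Hnrnpa2b1 was -0.069 with the effective length offset. Hnrnpul2, at 0.01 in the main fit, was -0.0048 with that offset, -0.0025 with a filter of 10 counts in every library and from -0.011 (without preadipocyte library 1) to 0.057 with 1 library left out. Ptbp1, at -0.07, was 0.0037 with no low-count filter and ran from -0.11 to 0.043 (without adipocyte library 3) with 1 library left out.

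For transcript length, 200 genes were longer and 315 shorter, against 31 and 42 with the replicate block. Without 1 library each these counts were 76 to 117 longer and 75 to 179 shorter, and 0 to 2 members were shorter. The mean-variance trend gave 2 shorter members. On CPM the summed levels in adipocytes were 78.9% (SR), 86.1% (hnRNP), 106% (other regulators) and 87.4% (all members, 60.5% on TPM) of those in preadipocytes. Shares on CPM changed by -9.99 percentage points for Ptbp2, 9.59 for Ptbp3 and 0.13 for Celf2, against -12.7, 5.87 and -3.30 on TPM. The remaining alternatives of the member fold changes left 637 values on the same side of zero and of the threshold, 50 past it where the main fit was not and 23 short of it. Depth limits Srsf12, Esrp1 and Khdrbs3.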
